A study of Cricetiscus sungorus with 41 samples.

Results

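RBM3 and CIRBP are the classical cold-inducible RNA-binding proteins of mammals, and their transcripts were followed in the blood of Djungarian hamsters, a small rodent that lowers its body temperature for some hours a day in spontaneous daily torpor. Both genes were taken by name from a table of 20220 human gene symbols, so the members are 2 of 20220, and both had counts in all 41 blood libraries. All animals carried the wild-type label and were killed with CO2 at an age of 32 ± 4 weeks. The 36 animals of the torpor groups were acclimated to short photoperiod and had each been seen in torpor, which the labels define by a body temperature below 32 °C held over 30 min or longer. On that day 18 of them entered torpor (hypothermic, HT) and 18 stayed normothermic (NT), so the HT label names the day's state and not the body temperature at each hour. HT and NT animals were taken at zeitgeber time (ZT) 01, torpor entry (5 HT and 6 NT), at ZT04, mid torpor (5 HT and 4 NT), at ZT07, arousal (4 HT and 4 NT), and at ZT16, after torpor (4 HT and 4 NT). A further 5 hamsters that never showed torpor were the common control, and the labels give them neither a time nor a sex. Each library came from the blood of 1 animal. In bulk blood, fewer cells of a type and less RNA per cell cannot be told apart.

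RBM3 and CIRBP are small, closely related proteins with an RNA recognition motif at the amino-terminal end and a glycine-rich tail. In human and mouse cells both are induced by mild cooling and decline on warming, which is the opposite of the heat shock proteins, and they bind RNA and influence its stability, splicing and translation. RBM3 has been linked to the protection of synapses in cooled mice, and raised RBM3 transcript is known from tissues of hibernating bears and ground squirrels. CIRBP is also known to stabilize circadian transcripts in mouse cells and, once released from cells, to act as a danger signal through TLR4. The splicing of both genes responds to temperature, in mouse and human cells through HNRNPH1 for RBM3 and through the CDC-like kinases for CIRBP.

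The libraries held between 50153600 and 71662267 counts, of which haemoglobin transcripts took 73.7% to 93.8%, so that 3291472 to 14562786 counts were left for all other genes. Behind the values below stood 261 to 2517 counts of RBM3 and 485 to 6748 counts of CIRBP per library. Levels are given as CPM (counts scaled to a common library size) with factors from the trimmed mean of M values (TMM), a method that refers each library to the bulk of its genes. They describe a gene between libraries and are not a scale for comparing RBM3 with CIRBP, whose transcript lengths were not used. The never-torpor control replicate 5 stood apart by its low haemoglobin share of 73.7%. At ZT07 2 HT libraries went against their sex labels, since replicate 1, labelled male, had 8 counts of the Y-linked gene UTY and replicate 2, labelled female, had 52. UTY ran from 15 to 71 counts in the remaining 17 male-labelled libraries and from 0 to 8 in the remaining 17 female-labelled ones. Results at ZT07 are therefore also given without these libraries. Haemoglobin HBA1 and HBM were listed at 0 in every library, while the remaining erythroid, platelet and leukocyte markers were all present, as the tissue label says.

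RBM3 lay between 6.87 CPM, in NT replicate 1 at ZT04, and 20.7 CPM, in HT replicate 4 at ZT07. At ZT01, torpor entry, it measured 15.5, 11.0, 14.2, 17.8 and 10.7 CPM in the HT animals, against 13.0, 15.6, 13.3, 12.0, 14.9 and 9.54 CPM in the NT animals. At ZT04, mid torpor, it measured 16.04, 17.9, 15.8, 18.9 and 16.01 CPM in HT animals, against 6.87, 18.1, 13.1 and 13.5 CPM in NT animals. The HT and NT ranges overlapped at both times, and at ZT04 the overlap came from NT replicate 2 alone, which lay above 4 of the 5 HT values while the other NT animals lay below all of them. This depended on the scaling, the TMM factor of NT replicate 2 being 0.355. As plain CPM of all counts it had 6.44, below the 11.4 to 18.3 of HT animals, and NT replicates 3 (15.8) and 4 (17.7) lay inside that range. At ZT07, arousal, RBM3 measured 18.5, 16.5, 15.2 and 20.7 CPM in HT animals, against 13.3, 14.0, 17.5 and 16.4 CPM in NT animals. At ZT16, after torpor, it measured 9.54, 6.91, 11.6 and 10.1 CPM in HT animals, against 10.2, 11.2, 9.78 and 11.5 CPM in NT animals. The HT and NT animals overlapped again at both times, and every value at ZT16 was below every value at ZT07 of the same state. Of 11636 genes, 10.7% were likewise lower in HT and 1.18% in NT animals. The never-torpor controls measured 11.1, 10.7, 13.5, 12.8 and 12.2 CPM and lay inside the range of the other groups.

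CIRBP lay between 10.8 CPM, in NT replicate 1 at ZT04, and 33.0 CPM, in NT replicate 2 at ZT01. At ZT01 it measured 26.4, 25.9, 23.8, 25.5 and 20.1 CPM in HT animals, against 25.8, 33.0, 25.0, 22.2, 28.3 and 15.5 CPM in NT animals. At ZT04 it measured 19.1, 27.5, 27.7, 25.8 and 27.0 CPM in HT animals, against 10.8, 26.9, 19.4 and 20.8 CPM in NT animals. In this scaling NT replicate 1 at ZT04 was the lowest of all 41 libraries for both genes, and NT replicate 2 of that group, which had the fewest non-haemoglobin counts of the series, was the highest of its group for both. At ZT07 CIRBP measured 26.7, 28.2, 23.0 and 28.9 CPM in HT animals, against 20.2, 22.9, 19.9 and 22.2 CPM in NT animals. These 2 groups did not overlap, although the lowest HT and the highest NT value lay side by side, and 10.2% of 11636 genes were likewise higher in every HT animal at ZT07. This depended on the scaling. As plain CPM of all counts the groups overlapped, with 29.2 to 43.2 in HT and 21.1 to 33.6 in NT animals. As TMM-scaled CPM of non-haemoglobin counts they did not, with 209 to 261 in HT and 183 to 208 in NT animals. At ZT16 CIRBP measured 18.5, 17.9, 26.2 and 24.1 CPM in HT animals, against 15.5, 22.1, 18.3 and 22.8 CPM in NT animals, and the ranges overlapped. The never-torpor controls measured 22.9, 24.3, 20.9, 22.7 and 32.6 CPM, the last in replicate 5, the library with little haemoglobin.

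**Figure D1:**
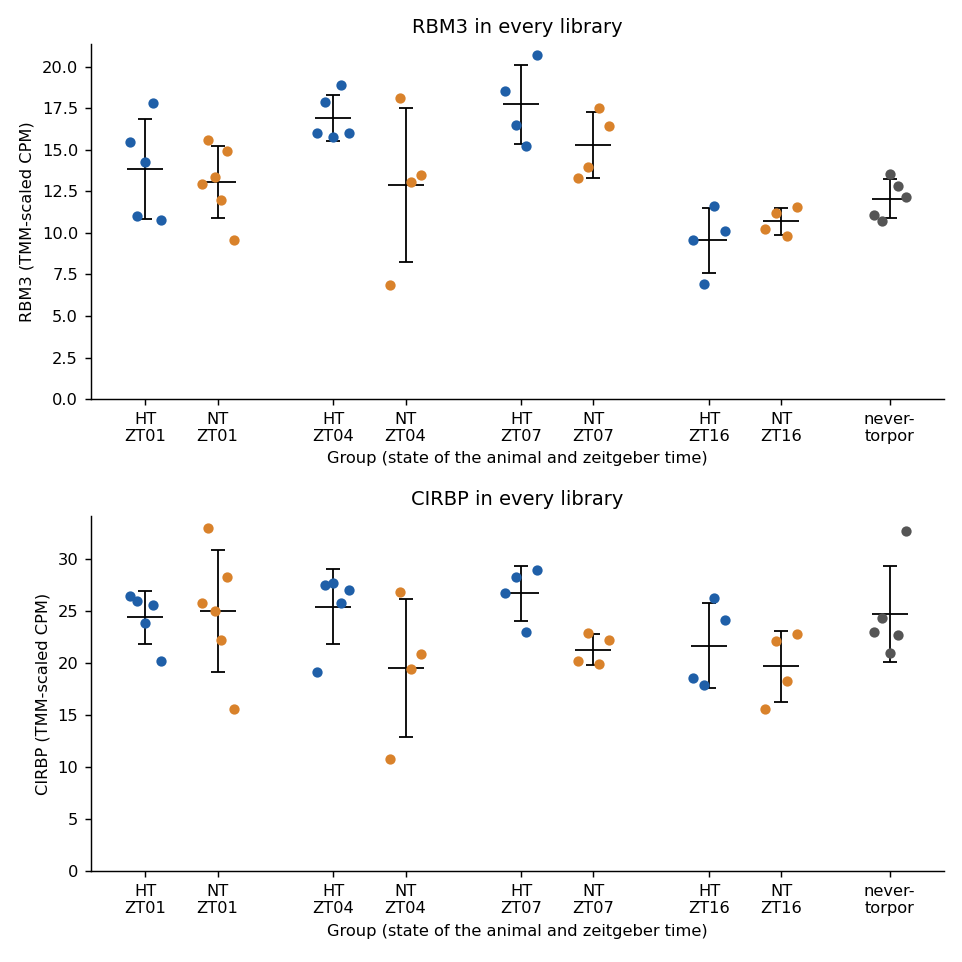
RBM3 (top) and CIRBP (bottom) in TMM-scaled CPM (vertical axes, from 0) in every library, by state and zeitgeber time on the horizontal axis; each point is 1 animal, the long dash is the group mean and the bars are 1 SD. RBM3 averaged 9.55 CPM in HT and 10.7 CPM in NT animals at ZT16, below the 17.7 CPM of HT and 15.3 CPM of NT animals at ZT07, while the CIRBP groups averaged between 19.5 and 26.7 CPM.

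Ordered by mean, RBM3 was highest in HT animals at ZT07 (17.7 ± 2.39 CPM, SD, n = 4) and at ZT04 (16.9 ± 1.40, n = 5), then in NT animals at ZT07 (15.3 ± 1.99, n = 4), HT at ZT01 (13.9 ± 3.01, n = 5), NT at ZT01 (13.1 ± 2.17, n = 6), NT at ZT04 (12.9 ± 4.62, n = 4), the never-torpor controls (12.1 ± 1.17, n = 5), NT at ZT16 (10.7 ± 0.814, n = 4) and HT at ZT16 (9.55 ± 1.97, n = 4). The ranges of every pair of neighbours in this order overlapped. Among all 36 pairs of groups, 9 did not overlap for RBM3, and all of them set an HT or NT group at ZT04 or ZT07 above another group. HT animals at ZT04 lay above HT animals at ZT16, as held for 4.46% of 11636 genes in this direction, above NT animals at ZT16 (4.69% of genes) and ZT01 (2.59%) and above the controls (5.62%). HT animals at ZT07 lay above both ZT16 groups (10.7% of genes for HT and 11% for NT) and the controls (11%), and NT animals at ZT07 lay above both ZT16 groups (1.93% for HT and 1.18% for NT). Several of these pairs depended on the scaling. As plain CPM of all counts, HT animals at ZT04 (11.4 to 18.3) overlapped HT animals at ZT16 (10.5 to 14.3). They also overlapped NT animals at ZT01 (4.90 to 16.9) and the controls (13.1 to 45.4). In that scale HT animals at ZT07 (19.5 to 25.2) overlapped the controls, and NT animals at ZT07 (14.0 to 20.5) overlapped HT animals at ZT16.

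CIRBP was highest in HT animals at ZT07 (26.7 ± 2.65 CPM, SD, n = 4) and ZT04 (25.4 ± 3.62, n = 5), and next in NT animals at ZT01 (25.0 ± 5.86, n = 6), the controls (24.7 ± 4.59, n = 5) and HT animals at ZT01 (24.4 ± 2.56, n = 5). HT animals at ZT16 averaged 21.7 ± 4.11 (n = 4), followed by NT animals at ZT07 (21.3 ± 1.48, n = 4), ZT16 (19.7 ± 3.38, n = 4) and ZT04 (19.5 ± 6.62, n = 4). Neighbours overlapped throughout, and in TMM-scaled CPM only 2 of 36 pairs of groups did not. These were HT at ZT07 above NT at ZT07 (10.2% of genes) and above NT at ZT16 (11%). Within groups the log2 level varied with an SD of 0.28 for RBM3 and 0.29 for CIRBP, against 0.40 for the median gene. That gene was not matched for level, and RBM3 stood at percentile 90.7 and CIRBP at 95.3 of mean level among 11636 genes.

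The first question was whether torpid blood held more of the cold-inducible transcripts than blood of normothermic animals at the same hour. Neither gene differed past the threshold at any of the 4 times (edgeR quasi-likelihood test, Benjamini-Hochberg adjusted p over all genes, threshold 0.05). At ZT04, when body temperature is lowest, RBM3 was 1.31-fold as high in HT as in NT animals, a log2 difference of 0.39 ± 0.23 (SE) with a 95% interval of -0.11 to 0.89 (edgeR adjusted p = 0.464). CIRBP at ZT04 was 1.30-fold as high, with a log2 difference of 0.38 ± 0.23 and an interval of -0.13 to 0.89 (edgeR adjusted p = 0.490). The intervals leave room for a rise of close to 1.85-fold and for a slight drop, so the groups of 5 and 4 animals cannot tell these apart. The size rested on single NT libraries, being 0.20 for either gene without NT replicate 1 and 0.59 for RBM3 and 0.57 for CIRBP without NT replicate 2, and it passed in no fit that left out 1 library (edgeR adjusted p of at least 0.246 for RBM3 and 0.279 for CIRBP). At that time 0.447% of 10505 genes passed the test.

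At ZT07 RBM3 differed by 0.19 ± 0.15 on the log2 scale (interval -0.14 to 0.53, edgeR adjusted p = 0.449). CIRBP differed by 0.31 ± 0.13, or 1.24-fold (interval 0.02 to 0.59, edgeR unadjusted p = 0.0380, adjusted p = 0.155), and missed the threshold in a comparison in which 10.4% of 10787 genes passed it. Without the 2 HT libraries that went against their sex labels the differences were 0.21 for RBM3 (edgeR adjusted p = 0.629) and 0.27 for CIRBP (edgeR adjusted p = 0.465), with the spread of HT then resting on 2 animals. Summed natural killer and cytotoxic markers were 32.0 to 58.6 CPM in HT animals, against 32.8 to 88.0 CPM in NT animals at ZT07, and 3 of the 8 markers were lower past the test. Also lower were 1 of 6 haemoglobin, 1 of 12 erythroid and 1 of 8 B cell markers, and 1 of 7 tested neutrophil markers was higher. The part of cell makeup in the CIRBP difference was not tested.

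At ZT01 the log2 differences between HT and NT animals were 0.08 ± 0.16 for RBM3 (interval -0.27 to 0.43, edgeR adjusted p = 0.904) and -0.04 ± 0.17 for CIRBP (interval -0.40 to 0.32, edgeR adjusted p = 0.966). At ZT16 they were -0.16 ± 0.16 for RBM3 (interval -0.51 to 0.19, edgeR adjusted p = 0.903) and 0.14 ± 0.17 for CIRBP (interval -0.23 to 0.52, edgeR adjusted p = 0.926). No gene at all passed at ZT01 (0% of 10509, against 7.69% before adjustment at 0.05 and 12 genes with DESeq2), and 0.0187% of 10705 passed at ZT16. All HT animals at ZT16 were labelled female and all NT animals male, so state and sex cannot be told apart at that time.

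**Figure D2:**
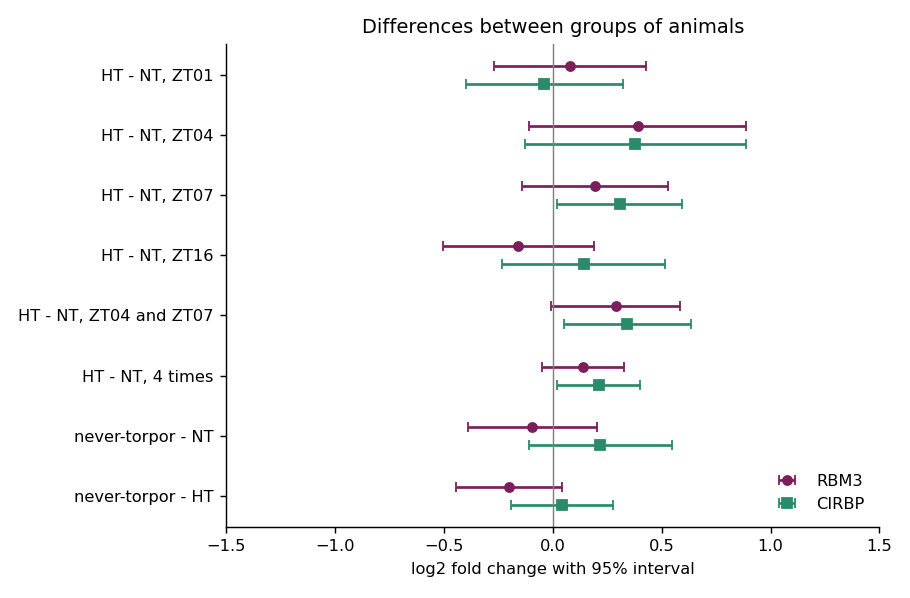
Log2 fold change (horizontal axis) of RBM3 (circles) and CIRBP (squares) between groups of animals, with 95% intervals from the edgeR fits; each line names the group on top of the fold change first. At ZT04 the estimates were 0.39 for RBM3 and 0.38 for CIRBP with intervals across 0, and no comparison passed the adjusted threshold.

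Pooling times did not change this for RBM3. Over ZT04 and ZT07 together RBM3 was higher in HT animals by 0.29 ± 0.14 (interval -0.01 to 0.59, edgeR unadjusted p = 0.0559, adjusted p = 0.175), and averaged over all 4 times by 0.14 ± 0.09 (edgeR adjusted p = 0.349). CIRBP came closer to the threshold, with a log2 difference of 0.34 ± 0.14 over ZT04 and ZT07 (interval 0.05 to 0.63, edgeR unadjusted p = 0.0240, adjusted p = 0.101) and of 0.21 ± 0.09 over 4 times (edgeR unadjusted p = 0.0307, adjusted p = 0.133). In these fits 17% of 11110 genes and 14.2% of 11471 genes passed. Sex by label was uneven between the states, since all NT animals at ZT04 and ZT16 were male and all HT animals at ZT16 female. With labelled sex in the fit neither RBM3 nor CIRBP passed in either, and 1227 genes did over 4 times, in place of 1628. A single library decided the side of the threshold for CIRBP, since without NT replicate 2 at ZT04 the difference over ZT04 and ZT07 was 0.43 with an edgeR adjusted p of 0.0319, while without NT replicate 1 it was 0.25 and did not pass. For RBM3 it was 0.38 without NT replicate 2 and 0.19 without NT replicate 1, and passed in neither. Without the 2 ZT07 libraries in doubt the differences over ZT04 and ZT07 were 0.31 for RBM3 and 0.34 for CIRBP (edgeR adjusted p = 0.281 and 0.230). The torpor difference was also compared between times. For RBM3 it was larger at ZT04 than at ZT16 by 0.56 ± 0.27 on the log2 scale (edgeR unadjusted p = 0.0438, adjusted p = 0.406) and for CIRBP larger at ZT04 than at ZT01 by 0.42 ± 0.25 (edgeR adjusted p = 0.751), and neither of these, nor any other of the 6 such contrasts with ZT04 over the 2 genes, passed the threshold. At most 0.331% of all genes passed in them.

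The second question was how the transcripts ran over the day within animals of the same state. In HT animals RBM3 changed with time (edgeR F test over 4 times, adjusted p = 0.00798, in a fit in which 9.85% of 11130 genes passed). It was lower at ZT16 than at ZT07 in HT animals, by -0.88 ± 0.17 on the log2 scale or to 0.544-fold (interval -1.24 to -0.52, edgeR adjusted p = 0.00264). The 4 HT animals at ZT16 lay between 6.91 and 11.6 CPM and the 4 at ZT07 between 15.2 and 20.7 CPM, and 10.7% of 11636 genes were likewise lower in every HT animal at ZT16. In this contrast 13.6% of 11130 genes passed the test. The result kept its side of the threshold without the 2 ZT07 libraries that went against their labels (-0.93, edgeR adjusted p = 0.0266) and with labelled sex in the fit (-0.83, edgeR adjusted p = 0.00456). The fit with sex used the labels as given, also for these 2 libraries, so it cannot tell what part sex had. The F test over 4 times without these libraries gave an adjusted p of 0.0325.

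NT animals, which had not been torpid, showed the same direction. RBM3 was lower at ZT16 than at ZT07 in NT animals by -0.54 ± 0.21 (interval -0.97 to -0.10, edgeR unadjusted p = 0.0187), with 9.78 to 11.5 CPM at ZT16 and 13.3 to 17.5 CPM at ZT07. The ranges did not overlap, as held for 1.18% of genes in this direction. With sex in the fit the NT difference was -0.51 (edgeR unadjusted p = 0.0770). All 4 NT animals at ZT16 were labelled male and all 4 HT animals female, while at ZT07 either state had 1 male and 3 females by label. The adjusted p was 0.9999, in a fit in which 0% of 11111 genes passed and 3.2% did so before adjustment, DESeq2 and limma calling 1 gene each. The difference between the HT and NT contrasts was -0.35 ± 0.27 (interval -0.90 to 0.21, edgeR adjusted p = 0.606, with 2.35% of 11471 genes passed), so the drop was not shown to be larger after torpor. Over HT and NT animals together RBM3 was lower at ZT16 than at ZT07 by -0.73 ± 0.14, or to 0.603-fold (interval -1.01 to -0.45, edgeR adjusted p = 0.00169), where 5.17% of 11471 genes passed, and by -0.73 without the 2 libraries in doubt (edgeR adjusted p = 0.0119). This joint contrast and the difference between the HT and NT contrasts were added after the values had been seen. Their p are a description of a pattern already noticed.

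The lower RBM3 at ZT16 than at ZT07 within a state did not hang on the scaling. As plain CPM of all counts it was 10.5 to 14.3 at ZT16 and 19.5 to 25.2 at ZT07 in HT animals, and 6.73 to 10.4 at ZT16 and 14.0 to 20.5 at ZT07 in NT animals. As CPM of non-haemoglobin counts it was 63.3 to 103 at ZT16 and 138 to 187 at ZT07 in HT animals, and 88.7 to 101 at ZT16 and 122 to 161 at ZT07 in NT animals. In none of these scales did the times overlap within a state.

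CIRBP did not pass in any contrast between times. Between ZT16 and ZT07 it differed by -0.29 ± 0.15 in HT animals (interval -0.60 to 0.03, edgeR adjusted p = 0.223) and by -0.13 ± 0.23 in NT animals (interval -0.61 to 0.34, edgeR adjusted p = 0.9999), and the F tests over 4 times gave adjusted p = 0.499 in HT and 0.998 in NT animals. The steps from ZT01 to ZT04 and from ZT04 to ZT07 passed for neither gene. The largest of them was CIRBP at ZT04 against ZT01 in NT animals, with -0.36 ± 0.21 (edgeR adjusted p = 0.998), and for RBM3 it was the same step in HT animals, with 0.28 ± 0.15 (edgeR adjusted p = 0.522). RBM3 at ZT16 against ZT01 differed by -0.54 ± 0.17 in HT animals (edgeR unadjusted p = 0.00397, adjusted p = 0.246), a contrast in which 0% of 11130 genes passed, 11.1% before adjustment, and 96 with DESeq2.

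**Figure D3:**
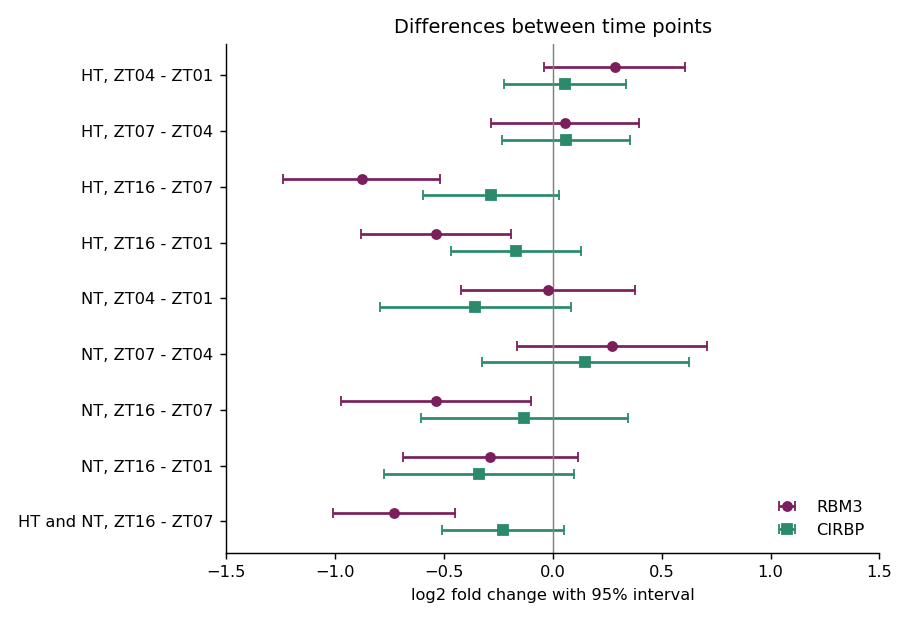
Log2 fold change (horizontal axis) of RBM3 (circles) and CIRBP (squares) between zeitgeber times within HT and NT animals and, in the last line, over both, with 95% intervals from the edgeR fits; the later time is on top of the fold change. RBM3 at ZT16 against ZT07 was -0.88 in HT, -0.54 in NT and -0.73 over both.

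The count of RBM3 per 100 counts of CIRBP needs no scaling, since both genes are read in the same library. At ZT16 it was 51.5, 38.7, 44.4 and 42.0 in HT animals, against 65.9, 50.7, 53.4 and 50.7 in NT animals. At ZT07 it was 69.3, 58.5, 66.2 and 71.5 in HT animals, against 66.0, 61.1, 88.1 and 73.9 in NT animals. In HT animals the times did not overlap, and in NT animals replicate 1 at ZT16 reached into the range of ZT07. At ZT04 the ratio was 84.0, 65.0, 56.9, 73.3 and 59.3 in HT animals, against 63.6, 67.5, 67.4 and 64.6 in NT animals. NT replicates 1 and 2 at ZT04, the lowest and highest of their group in TMM-scaled CPM of either gene, had nearly the same ratio. The controls had 48.4, 44.0, 64.6, 56.6 and 37.3, the last in replicate 5 and the lowest of the series. Group means at ZT01 were 56.8 ± 9.96 in HT animals (n = 5) and 53.2 ± 4.72 in NT animals (n = 6), each with its SD.

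**Figure D4:**
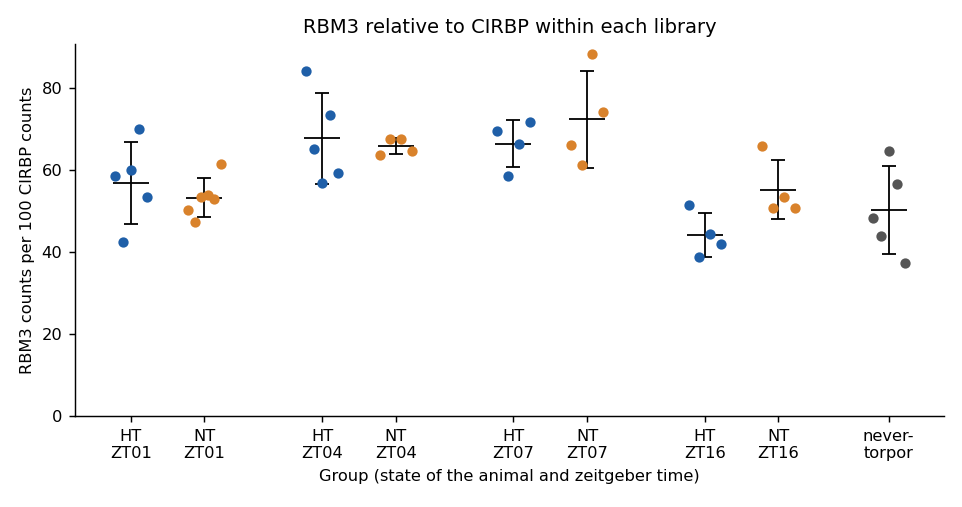
Counts of RBM3 per 100 counts of CIRBP in the same library (vertical axis, from 0) by state and zeitgeber time; each point is 1 animal, the long dash is the group mean and the bars are 1 SD. The 4 HT animals at ZT16 lay between 38.7 and 51.5, below the 58.5 to 71.5 of HT animals at ZT07.

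The hamsters that never showed torpor were set against either state. RBM3 differed by -0.20 ± 0.12 from the mean of the HT groups (interval -0.45 to 0.04, edgeR adjusted p = 0.326) and by -0.09 ± 0.14 from the mean of the NT groups (interval -0.39 to 0.20, edgeR adjusted p = 0.925). CIRBP differed by 0.04 ± 0.11 from HT (interval -0.19 to 0.28, edgeR adjusted p = 0.865) and by 0.22 ± 0.16 from NT (interval -0.11 to 0.55, edgeR adjusted p = 0.762). In these fits 8.27% of 11422 and 2% of 11369 genes passed. Without the control library with little haemoglobin CIRBP differed from HT by -0.08, so the sign of that difference rested on it, and from NT by 0.10. Since the time of day of the controls is not given, an hour of the day and the lack of torpor cannot be told apart here.

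RBM3 and CIRBP varied together from animal to animal. Pearson's r of their log2 levels was 0.66 over 41 libraries, 0.69 over the 18 HT and 0.79 over the 18 NT libraries, and 0.74 after the mean of each group was taken out. Without NT replicate 1 at ZT04, the lowest library for both, r with group means left in was 0.57. Spearman's correlation was 0.59 over 41 libraries and 0.57 after group means were taken out. Libraries share their depth and scaling between genes, so r is a description. In the same measure, the genes most like RBM3 were MAPKAPK2 (r = 0.79), a kinase downstream of p38, CENPB (0.78), a centromere protein, NFKBIA (0.77), the inhibitor that holds NF-kappa-B in the cytoplasm, COLGALT1 (0.76), a collagen galactosyltransferase, and PLEKHO1 (0.76). The genes that ran most against RBM3 were USP9X (-0.81), a deubiquitinase, IRGM (-0.77), a GTPase of autophagy in human, and DNAJC16 (-0.76). CIRBP ranked 47th in likeness to RBM3 among 11636 genes, and RBM3 ranked 147th in likeness to CIRBP. By Spearman's correlation these ranks were 147 and 180. Most like CIRBP were RGS14 (0.89), a regulator of G protein signalling, ESRRA (0.86), a nuclear receptor of energy metabolism, MTA2 (0.84), a subunit of the NuRD complex, CENPB (0.84) and TMEM259 (0.83), and most opposed were ZNF780B (-0.75), STT3A (-0.70), a subunit of the oligosaccharyltransferase, and CDC26 (-0.70), a subunit of the anaphase-promoting complex. CENPB was thus among the 5 nearest genes of both.

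Among genes known to act on RBM3 and CIRBP, some passed the test between HT and NT animals. CLK1 and CLK4 are kinases that phosphorylate splicing factors and in mammalian cells are more active at lower temperature. Both were lower in HT than in NT animals at ZT04. They were 2 of 7 tested genes of this group, against 0.162% of all genes in this direction. At ZT01 the log2 difference was already -0.69 ± 0.17 for CLK4 (edgeR unadjusted p = 0.00101, adjusted p = 0.561). For CLK1 it was -0.65 ± 0.19 (edgeR unadjusted p = 0.00370, adjusted p = 0.585). At ZT01 0% of genes passed, against 7.69% before adjustment. From ZT01 to ZT04 in HT animals 0 of the 7 genes passed. CLK4 measured 5.93, 4.34, 5.61, 4.68 and 4.45 CPM in HT animals at ZT04, against 8.75, 11.1, 11.2 and 9.35 CPM in NT animals, a log2 difference of -1.02 ± 0.17 (edgeR adjusted p = 0.0226). CLK1 measured 13.4, 12.6, 16.8, 10.8 and 12.5 CPM in HT animals, against 25.9, 22.4, 23.4 and 24.7 CPM in NT animals, a difference of -0.88 ± 0.17 (edgeR adjusted p = 0.0459). Neither gene overlapped between the groups, as held in this direction for 3.21% of genes. All NT animals at ZT04 were labelled male and 3 of 5 HT animals female, and with sex in the fit neither passed (adjusted p = 0.307 for CLK4 and 0.373 for CLK1), at log2 differences of -0.97 and -0.89. Summed natural killer and cytotoxic markers were 30.2 to 57.8 CPM in HT animals at ZT04, against 49.6 to 112 CPM in NT animals, with 2 of 8 lower past the test, and their part in the kinase and FKBP4 differences was not tested.

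Averaged over 4 times, CLK4 (-0.47 ± 0.09, edgeR adjusted p = 0.000561) and CLK1 (-0.41 ± 0.09, edgeR adjusted p = 0.00246) were lower in HT animals and HNRNPH1, the splicing factor tied to RBM3, was higher (0.30 ± 0.07, edgeR adjusted p = 0.00367). CLK2, CLK3, SP1 and HSF1 did not pass there, and NTRK2 and TRPV3 were listed at 0. HNRNPH1 differed by 0.31 ± 0.18 at ZT04 (edgeR adjusted p = 0.454) and 0.53 ± 0.16 at ZT07 (edgeR adjusted p = 0.0566). The group's median log2 difference over 4 times was -0.14, against -0.01 for all genes. This average and those of the lists below were fitted without sex, which by label was uneven between HT and NT animals. Values with sex in the fit are not given for them.

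Among related proteins with an RNA recognition motif, 2 of 13 tested genes were higher in HT animals over 4 times, where 8.19% of all genes were higher. They were HNRNPDL (0.38 ± 0.06, edgeR adjusted p = 7.62e-05), a splicing regulator, and HNRNPA3 (0.16 ± 0.05, edgeR adjusted p = 0.0383). HNRNPDL also passed at ZT07 by itself, where 5.73% of all genes were higher (0.74 ± 0.15, edgeR adjusted p = 0.0131), though not without the 2 libraries in doubt (0.73, edgeR adjusted p = 0.123). None of the 5 tested cold shock domain genes, which share the name but not the fold of RBM3 and CIRBP, passed at any time or over all. The lowest unadjusted p among them was that of CARHSP1 at ZT16, with a log2 difference of -0.56 ± 0.20 (edgeR adjusted p = 0.552).

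Of the transcripts described as targets of RBM3 or CIRBP, only TERT, the catalytic subunit of telomerase, passed over 4 times (-0.62 ± 0.18, edgeR adjusted p = 0.0165), 1 of 9 tested beside 14.2% of all genes. CLOCK, a core circadian factor whose transcript CIRBP binds in mouse cells, was higher in HT animals over ZT04 and ZT07 (0.49 ± 0.17, edgeR adjusted p = 0.0450), where TERT was lower (-1.02 ± 0.31, edgeR adjusted p = 0.0313), 2 of 9 tested beside 17% of all genes. These 2 calls are given only with the ZT07 libraries in doubt, without which 936 genes passed in that fit, in place of 1894. None of the 7 genes for receptors of extracellular CIRBP and their adaptors passed in a comparison of HT with NT animals. TLR4, the receptor itself, differed by -1.20 ± 0.38 at ZT04 (edgeR adjusted p = 0.153, DESeq2 adjusted p = 0.0393). DESeq2 was the only 1 of 10 other analyses in which it passed. Its level was low, at 0.24 to 0.36 CPM in HT and 0.43 to 0.97 CPM in NT animals, and all NT animals at ZT04 were labelled male.

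Of the 12 tested stress granule, methylation and import partners 3 passed over 4 times, beside 14.2% of all genes. TIAL1 (0.37 ± 0.07, edgeR adjusted p = 0.000417), an RNA-binding protein of stress granules, was higher in HT animals, and CAPRIN1 (-0.29 ± 0.06, edgeR adjusted p = 0.00131), a partner of G3BP1, was lower. TIAL1 (0.65 ± 0.16) and CAPRIN1 (-0.56 ± 0.14) passed at ZT07 too, 2 of 12 beside 10.4% of all genes, and neither did so without the 2 libraries in doubt (edgeR adjusted p = 0.170 and 0.196).

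Of the heat shock genes, which in mammalian cells respond to temperature in the opposite sense, 5 of 17 tested were lower in HT animals over 4 times and none higher, where 6% of all genes were lower, and the median log2 difference was -0.23 against -0.01 for all genes. FKBP4, a co-chaperone of HSP90, differed most (-0.89 ± 0.10, edgeR adjusted p = 5.29e-07), followed by STIP1 (-0.45 ± 0.11, edgeR adjusted p = 0.00734), HSPA8 (-0.43 ± 0.09, edgeR adjusted p = 0.000956), DNAJA1 (-0.30 ± 0.09, edgeR adjusted p = 0.0270) and HSPA4 (-0.29 ± 0.08, edgeR adjusted p = 0.0102). In the same comparison 5 of 12 reticulocyte and erythroid markers were lower (median log2 difference -0.53). So were 1 of 6 haemoglobin and 2 of 8 natural killer and cytotoxic markers. Of the neutrophil markers 3 of 8 were higher and 1 lower, and of the 8 B cell markers 1 was higher and 1 lower. Among the T cell markers 1 of 12 was higher, and among the monocyte markers 1 of 8. Sex by label was uneven between HT and NT animals and was not in this fit. The part of cell makeup in the heat shock result was not tested. At ZT04 FKBP4 measured 2.64, 2.69, 2.44, 2.17 and 2.64 CPM in HT animals, against 3.26, 6.64, 6.71 and 6.32 CPM in NT animals (log2 difference -1.19 ± 0.21, edgeR adjusted p = 0.0327). The groups did not overlap, and NT replicate 1, lowest in RBM3 and CIRBP, was also nearest to the HT animals here. With sex in the fit FKBP4 at ZT04 did not pass (-1.10, edgeR adjusted p = 0.373).

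At ZT07 FKBP4 measured 2.33, 1.82, 1.95 and 1.57 CPM in HT animals, against 6.17, 5.81, 6.23 and 7.45 CPM in NT animals (-1.76 ± 0.16, edgeR adjusted p = 0.000498). HSPA8, the constitutive HSP70, measured 45.3, 44.7, 41.4 and 42.4 CPM in HT animals at ZT07, against 74.6, 70.8, 70.6 and 68.1 CPM in NT animals (-0.73 ± 0.12, edgeR adjusted p = 0.00685). The groups did not overlap in either gene, as held for 8.03% of genes in this direction. STIP1 (-0.59 ± 0.15, edgeR adjusted p = 0.0308) was the third of 17 tested that was lower, where 4.65% of all genes were lower. Without the 2 libraries in doubt, which left 2 HT animals at ZT07, HSPA8 and STIP1 did not pass (edgeR adjusted p = 0.0833 and 0.219).

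Of the 17 tested heat shock genes, 6 were higher at ZT16 than at ZT07 in HT animals and none lower, where 6.71% of all genes were higher, namely FKBP4 (1.95 ± 0.17), STIP1 (0.87 ± 0.18), HSPA8 (0.84 ± 0.18), HSPA4 (0.56 ± 0.18), DNAJA1 (0.54 ± 0.16) and HSP90AB1 (0.44 ± 0.13). These genes were chosen after their values were seen, since the naming rule covers comparisons of HT with NT animals. FKBP4 measured 8.16, 8.06, 6.44 and 6.67 CPM in HT animals at ZT16, against 2.33, 1.82, 1.95 and 1.57 CPM at ZT07. In NT animals the FKBP4 difference was 0.08 ± 0.25, and the HT and NT contrasts differed for FKBP4 (1.87 ± 0.31, edgeR adjusted p = 0.00105), while for RBM3 they were not shown to. The comparison of the HT and NT contrasts was added after the values had been seen, and state and sex cannot be told apart at ZT16. In it 270 genes passed, 75 with labelled sex in the fit and 45 without the 2 libraries in doubt. At ZT16 against ZT07 in HT animals, only FKBP4 of the 6 heat shock genes still passed without these libraries. The adjusted p of the other 5 lay between 0.0533 and 0.234.

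**Figure D5:**
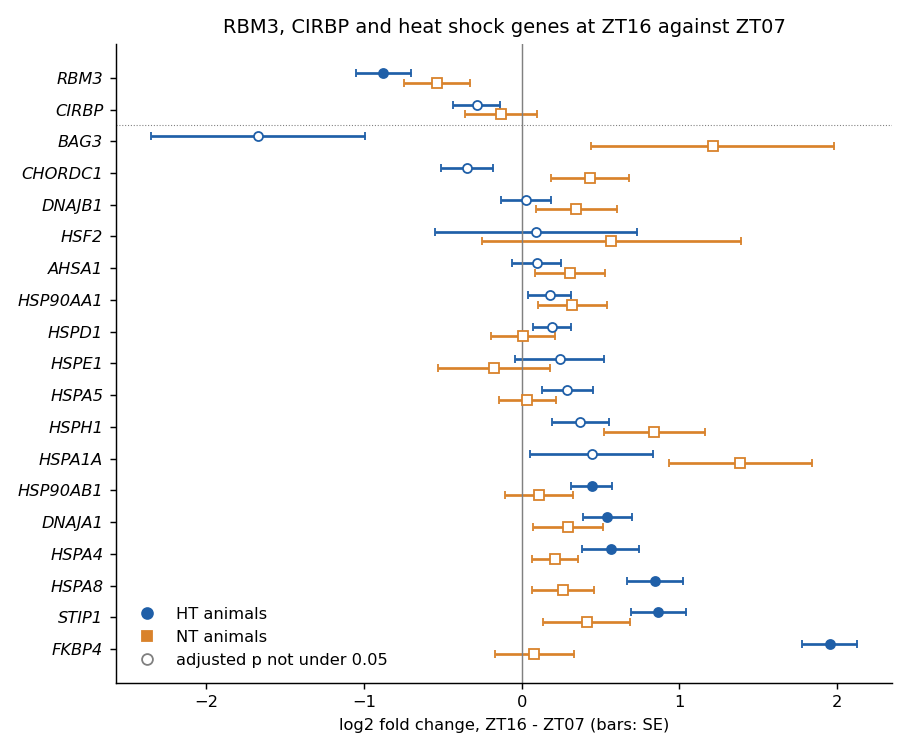
Log2 fold change at ZT16 against ZT07 (horizontal axis, bars 1 SE) of RBM3, CIRBP and the tested heat shock genes in HT animals (circles) and NT animals (squares); filled symbols had an adjusted p under 0.05. RBM3 was at -0.88 and FKBP4 at 1.95 in HT animals, and no gene passed in NT animals.

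Members of the other lists also passed at ZT16 against ZT07 in HT animals, where 13.6% of all genes did. Among the genes that act on RBM3 and CIRBP 2 of 7 were higher at ZT16 than at ZT07, CLK1 (0.67 ± 0.19) and CLK2 (0.47 ± 0.12). Among related RNA recognition motif proteins HNRNPA2B1 (0.54 ± 0.11) and TRA2A (0.46 ± 0.15) were higher and HNRNPDL (-0.74 ± 0.12) lower, 3 of 13, and none of the 5 cold shock domain genes passed. TERT (1.69 ± 0.45), 1 of 9 targets, was higher, and TYROBP (-0.83 ± 0.22), 1 of 7 receptors and adaptors, was lower. CAPRIN1 (0.60 ± 0.15) was higher and TIAL1 (-0.59 ± 0.14) lower, 2 of 12 stress granule, methylation and import partners, and of all these only HNRNPDL still passed without the 2 libraries in doubt. Of the blood markers, 5 of 8 natural killer and cytotoxic genes were higher in HT animals at ZT16 than at ZT07, with sums of 53.0 to 144 CPM at ZT16 and 32.0 to 58.6 CPM at ZT07. In NT animals, where RBM3 ran the same way, the sums were 42.8 to 174 CPM at ZT16 and 32.8 to 88.0 CPM at ZT07. The summed level correlated with RBM3 at r = -0.63 over 41 libraries, with differences between groups left in. For the sums of the other blood marker lists r lay between -0.22 (T cell) and 0.21 (B cell), and for the heat shock genes it was -0.49. Of the other blood markers 1 of 8 neutrophil and 1 of 8 B cell genes were higher and 1 of 8 monocyte genes lower at ZT16, while none of the haemoglobin, erythroid, T cell or platelet genes passed. All markers of these leukocyte lists were above 0, and the part of cell makeup in the RBM3 result was not tested.

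The lists were also read against the controls, again with genes chosen after their values were seen. In never-torpor animals compared with the HT groups, 7 of the 17 tested heat shock genes were higher and none lower, against 4.25% of all genes higher, with FKBP4 at 1.02 ± 0.10 (edgeR adjusted p = 6.60e-08). Of the genes that act on RBM3 and CIRBP 3 of 7 were higher and none lower, CLK4 (0.59 ± 0.13, edgeR adjusted p = 0.00424), CLK1 (0.51 ± 0.12, edgeR adjusted p = 0.00821) and CLK3 (0.31 ± 0.09). Of the related RNA recognition motif proteins 3 of 13 were higher, HNRNPA2B1 (0.46 ± 0.08), RBM8A (0.30 ± 0.08) and HNRNPA3 (0.27 ± 0.08). The cold shock domain gene YBX3 (-0.69 ± 0.22) was lower, 1 of 5 beside 4.03% of all genes in this direction, and TARDBP (0.39 ± 0.11) was higher, 1 of 12 stress granule, methylation and import partners. No target and no receptor gene passed. Of the markers, 2 of 6 haemoglobin genes were lower and 1 of 8 each of the B cell, natural killer and neutrophil genes higher, with 1 B cell gene lower, and their part was not tested. Compared with the NT groups, where 2% of all genes passed, HNRNPA3 (0.40 ± 0.09, edgeR adjusted p = 0.0117) was the only gene of the lists to do so besides 1 of 6 haemoglobin genes, which was lower. The HT groups entered both this comparison and that with NT animals, so the differences are not independent of those above. RBM3 and CIRBP passed in neither.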

How the data were processed

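Blood pellets of 41 hamsters were sequenced as paired-end reads from random-primed cDNA. Per the study's methods the authors trimmed reads with Trimmomatic, built a de novo transcriptome with Trinity, matched contigs to human proteins to give gene symbols, aligned reads and summed them with their own scripts. The deposited values are raw counts per symbol. Splice forms are not separated, reads shared between related genes could be split, and no genome position was used. Of counts from 1 to 49, 67.4% were even, so counts may not be single fragments. No libraries were duplicates.

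Differences came from edgeR 4.0.16 (TMM, filterByExpr, quasi-likelihood test, Benjamini-Hochberg over all genes, threshold 0.05) in R 4.3.3, fitted on the groups compared and checked on simulated data. DESeq2 1.42.0, limma 3.58.1 voom, other scaling, no filter, haemoglobin removed, sex, wider fits and leaving out libraries were tried as alternatives. CPM used 41-library TMM factors, and log2 levels a prior count of 2. Figures used matplotlib 3.10.9. Genes named from the lists are those past the test between HT and NT animals, else up to 3 with the lowest p, besides the 5 most and 3 least like each member. A result of the stress granule list that this rule would name is not reported here. Members and lists were chosen with earlier results of these data known. Nothing in the labels gives a batch, and p-values measure the spread between animals.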

Additional observations from a re-analysis of the deposited data

Results flagged for a closer look

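Among 72 groups of 4 to 6 libraries looked at for a value far from the rest, 7 held one by Dixon's test at 95%, and chance gives about 1 in 20 groups. For CIRBP this was HT replicate 1 at ZT04, with 19.1 CPM against 25.8 to 27.7 CPM in the other 4, and no RBM3 group held one. FKBP4 was far from the rest in NT replicate 1 at ZT04 (3.26 CPM against 6.32 to 6.71), HSPA8 in HT replicate 5 at ZT01 (78.7 CPM against 50.3 to 54.6) and in NT replicate 1 at ZT16 (130 CPM against 67.5 to 76.0), and CLK4 in the never-torpor control replicate 5 (12.5 CPM against 8.35 to 9.45). The haemoglobin share stood apart in NT replicate 4 at ZT01 (93.0% against 89.2% to 90.6%) and in that control (73.7% against 84.7% to 88.6%).

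The HT minus NT difference of FKBP4 differed between times. It was lower at ZT04 than at ZT16 by -1.29 on the log2 scale, and higher at ZT16 than at ZT07 by 1.87, both past the adjusted threshold in edgeR's interaction contrasts. The contrast of ZT16 with ZT07 was added after the values had been seen. At ZT16 all HT animals were labelled female and all NT animals male. No such contrast passed for RBM3 or CIRBP.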

How the results depend on the processing

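RBM3 at ZT16 against ZT07 in HT animals passed in all 9 other analyses (-0.93 to -0.83) and in all 18 that left out a library (-0.99 to -0.76), and over HT and NT animals in all 8 (-0.76 to -0.72) and all 36. Signs turned only for differences near 0, none past the threshold. Limma turned CIRBP in controls against HT to -0.064. Replicate numbers did not pair animals (correlations of same-numbered HT and NT animals between -0.16 and 0.15), and with the replicate block RBM3 was -0.013 between HT and NT at ZT01 and -0.0051 between ZT07 and ZT04 in HT, and -0.88 between ZT16 and ZT07 in HT. The block changed no call of the members but ended those of CLK1, CLK4 and FKBP4 at ZT04 (adjusted p = 0.106).

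Leaving out libraries gave ranges across 0 for RBM3 between HT and NT at ZT01 (-0.024 to 0.16), RBM3 at ZT07 against ZT04 in HT (-0.013 to 0.12), RBM3 at ZT04 against ZT01 in NT (-0.22 to 0.17), CIRBP between HT and NT at ZT01 (-0.13 to 0.064), its HT minus NT difference at ZT04 against ZT07 (-0.11 to 0.25), CIRBP at ZT04 against ZT01 in HT (-0.0034 to 0.14), at ZT07 against ZT04 in HT (-0.017 to 0.12) and in NT (-0.033 to 0.32), and CIRBP in controls against HT (-0.079 to 0.080). CIRBP over ZT04 and ZT07 ranged from 0.25 to 0.43. The causes were not tested.

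Counts of genes called moved more. At ZT04 the 47 became 489 with DESeq2, 257 with limma, 675 with all 41 libraries in the fit, 480 with 36 and sex, 5 with the block and 1 with sex. At ZT16 the 2 became 83 with DESeq2. Without the 2 doubted libraries the 1120 at ZT07 became 37, the 1517 for ZT16 against ZT07 in HT became 387, and the 1628 over 4 times became 1069. Sex could not be fitted at ZT16. Groups of 4 to 6 animals limit what could pass, and the intervals stand beside each difference.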
